A study of Drosophila melanogaster with 7 samples.

Results

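Regional identity along the adult Drosophila midgut and the identity of its absorptive cells, the enterocytes, rest on a small set of transcription factors. Transcripts of 10 such genes were followed here: nub, GATAe, drm, bowl, exex, cad, lab, abd-A, Abd-B and vvl. They were chosen by name, with earlier results of these data known. All 10 were among the 10902 genes counted in the study, and all 10 passed the filter on low counts, among 9076 genes tested. RNA was sequenced from dissected midguts freed of crop, Malpighian tubules and hindgut, 7 days after adult flies raised at 18 °C were moved to 29 °C. The shift switches on esgts, a temperature-controlled Gal4 driver system that follows the gene escargot, which is active in intestinal stem cells and their immediate daughters. Every group carried this driver. In the group labelled Shn-RNAi puc (2 libraries) it drove an RNAi construct against schnurri (shn), whose product acts with the nuclear effectors of BMP signals, in flies that also carried the mutant allele PucE69 over a wild-type chromosome (esgts> Shn-RNAi,PucE69/+). The mutated gene, puckered (puc), encodes a phosphatase that restrains JNK. In the group labelled Shn-RNAi (2 libraries) it drove the same interference without that allele. In the control group (3 libraries) the driver line was crossed to w1118. The series title calls the first group a severe tumor, the second a tumor and the third wild type.

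Hox and other homeodomain proteins give parts of the gut tube their identity in the embryo, and the adult midgut keeps regional differences between its enterocytes. GATAe is a zinc-finger protein of the GATA family that is needed for the endoderm to differentiate. nub encodes Pdm1, a POU-domain protein widely used as a marker of enterocytes. Because the RNA came from whole midguts, fewer cells of a type and less RNA per cell cannot be told apart in any value below.

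Total counts ran from 11552527 to 18490676 per library. Levels are TMM-scaled CPM, counts relative to the scaled total of their library, and a gene was called where edgeR's quasi-likelihood test gave a Benjamini-Hochberg adjusted p under 0.05 over all 9076 genes. Transcripts of shn itself were not lower in the RNAi groups. They stood at 66.5 and 69.7 CPM in libraries labelled Shn-RNAi puc, at 68.6 and 54.1 CPM in the ones labelled Shn-RNAi, and at 42.4 to 47.4 CPM in control, so groups are named by their labels throughout. Transcripts of puc stood at 86.5 and 88.3 CPM in libraries labelled Shn-RNAi puc, 93.5 and 101 CPM in the ones labelled Shn-RNAi and 70.2 to 82.2 CPM in control. Enterocyte effector genes, among them digestive enzymes and junction proteins, summed to between 51950 and 91426 CPM in the 7 libraries. Most of each sum was the trypsin genes alphaTry (29104 to 47793 CPM) and betaTry (12021 to 40062 CPM). The hindgut markers byn, otp and hh together summed to between 17.6 and 28.5 CPM.

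Of the 10 genes, 3 were called in each comparison with control, and they were the same 3: drm, nub and exex, all higher. DESeq2 and limma-voom called the same 3. The comparisons share their control libraries, so the second is not independent of the first. In libraries labelled Shn-RNAi puc, 8.76% of all tested genes were called higher, and in the ones labelled Shn-RNAi 6.06%. None of the 10 was called lower by edgeR, DESeq2 or limma-voom in either comparison, where edgeR called 6.25% and 3.56% of all genes lower. At an unadjusted edgeR p under 0.05, 0 of the 10 were lower. In either direction that threshold took in 3 of the 10 in libraries labelled Shn-RNAi puc, beside 2774 of all 9076 genes. In the ones labelled Shn-RNAi it took in 4 of the 10, beside 2432 of all 9076. Calls in either direction made up 15% and 9.62% of all genes. Every library of the group lay above all control libraries for 5 of the 10 genes in libraries labelled Shn-RNAi puc (28.5% of all tested genes) and for 4 of the 10 in the ones labelled Shn-RNAi (22.1%). The count lying below was 1 of 10 (26.4% of all tested genes), which was cad, and 0 of 10 (21.2%). The median log2 change over the 10 genes was 0.35 in libraries labelled Shn-RNAi puc and -0.01 in the ones labelled Shn-RNAi, beside 0.02 and 0.03 over all genes tested. The plot of the level in each library gives the separate values.

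**Figure D1:**
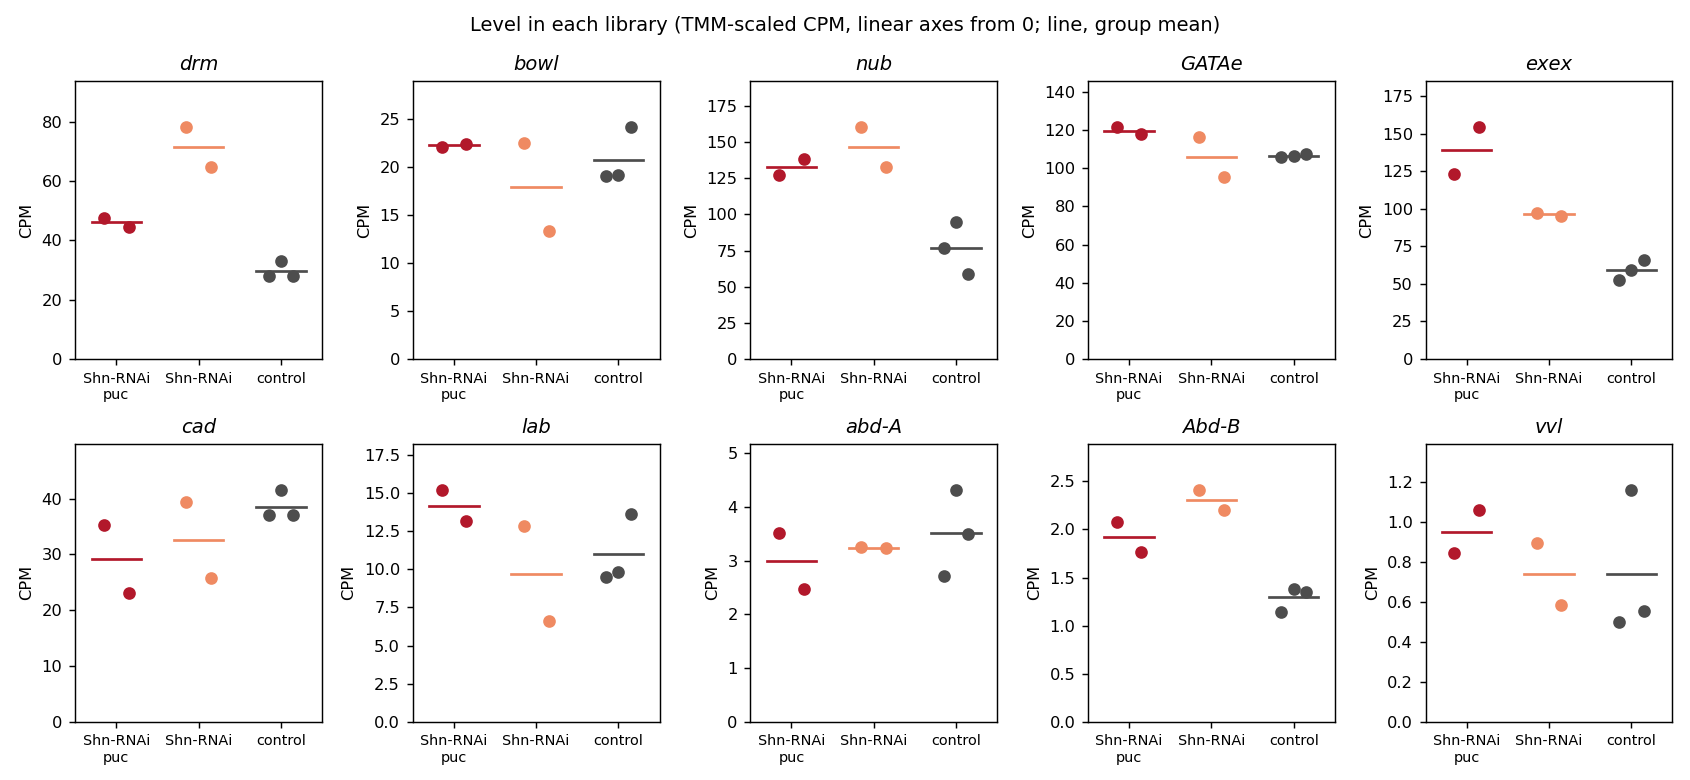
TMM-scaled CPM (linear axes from 0) of the 10 genes in each of the 7 libraries, with the group mean as a line. For drm, nub and exex every library labelled Shn-RNAi puc or Shn-RNAi lies above all 3 control libraries, whereas GATAe stays between 95.4 and 121 CPM in all 7.

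drm encodes Drumstick, a small zinc-finger protein of the odd-skipped family. In the embryo it binds the protein Lines and so frees Bowl, a larger member of the same family, to act in the forming foregut and hindgut. The gene lies on chromosome 2L from 3539247 to 3548423 on the plus strand (BDGP6.54), and its longest annotated coding sequence has 264 nt. Its level was 47.7 and 44.6 CPM in libraries labelled Shn-RNAi puc, 78.1 and 64.6 CPM in the ones labelled Shn-RNAi, and 27.9, 33.0 and 28.0 CPM in control. The 3 groups did not overlap, and libraries labelled Shn-RNAi were the highest. For 17% of all tested genes the 4 libraries of the RNAi groups lay above all control libraries. Here and below, the share of all genes with the 3 groups apart was not computed. Against control, drm rose 1.56-fold in libraries labelled Shn-RNAi puc (log2 change 0.64, SE 0.15, edgeR adjusted p = 0.031) and 2.40-fold in the ones labelled Shn-RNAi (log2 change 1.26, SE 0.15, adjusted p = 0.0033).

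bowl (chromosome 2L, 3771700 to 3784121, plus strand) was not called in either comparison with control. It stood at 22.1 and 22.4 CPM in libraries labelled Shn-RNAi puc, at 22.5 and 13.4 CPM in the ones labelled Shn-RNAi, and at 19.1, 19.1 and 24.1 CPM in control. The groups overlapped, and the lowest of the 7 values belonged to Shn-RNAi library 2. The log2 difference from control was 0.10 (95% interval -0.42 to 0.62, edgeR adjusted p = 0.81) in libraries labelled Shn-RNAi puc and -0.21 (-0.73 to 0.32, adjusted p = 0.61) in the ones labelled Shn-RNAi. The ratio of drm to bowl counts, which no scaling between libraries can alter, was 2.16 and 1.99 in libraries labelled Shn-RNAi puc, 3.47 and 4.84 in the ones labelled Shn-RNAi, and 1.47, 1.73 and 1.16 in control. The ratios of the 3 groups did not overlap. These and the other ratios below are given as a description and were not tested. With 2 libraries against 3, an exact permutation test whose two-sided p doubles the smaller tail cannot give a p below 0.2.

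The other genes of the family and their partner were set beside these. sob and odd, close neighbours of drm on chromosome 2L, begin 29.6 and 55.8 kb beyond its end, and lin encodes Lines. In the main edgeR fit, with TMM scaling and the length trend left in, 0 of these 3 were called in any comparison. The log2 differences of sob from control were 0.07 (SE 0.16) in libraries labelled Shn-RNAi puc and 0.31 (SE 0.16) in the ones labelled Shn-RNAi. odd stood at 43.3 and 44.9 CPM in libraries labelled Shn-RNAi puc, at 54.1 and 38.0 CPM in the ones labelled Shn-RNAi, and at 75.8, 59.8 and 83.6 CPM in control. All 4 libraries of the RNAi groups were thus below all 3 control libraries for odd (log2 difference -0.73, edgeR adjusted p = 0.054, and -0.66, adjusted p = 0.085), as were 15.4% of all tested genes. DESeq2 called odd lower in both, with an adjusted p of 0.015 in libraries labelled Shn-RNAi puc and 0.044 in the ones labelled Shn-RNAi, while limma-voom did not (0.052 and 0.076). These are among 9 alternative fits other than the refits that each left out 1 library. Of the 9, 4 called odd lower in libraries labelled Shn-RNAi puc and 2 in the ones labelled Shn-RNAi. In edgeR refits that each left out 1 library, odd was called lower in 3 of 7 for libraries labelled Shn-RNAi puc (the ones that omit control library 2, adjusted p = 0.046, or either Shn-RNAi library, 0.032 and 0.031) and in 0 of 7 for the ones labelled Shn-RNAi (0.051 to 0.27).

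nub lies on chromosome 2L from 12587625 to 12628135 on the plus strand. Its level was 127 and 138 CPM in libraries labelled Shn-RNAi puc, 160 and 133 CPM in the ones labelled Shn-RNAi, and 76.6, 95.1 and 59.0 CPM in control. All 4 libraries of the RNAi groups were above the 3 control libraries, as were 17% of all tested genes. The control libraries varied among themselves with an SD of 23.5% of their mean. The rise was 1.73-fold in libraries labelled Shn-RNAi puc (log2 change 0.79, SE 0.21, edgeR adjusted p = 0.044) and 1.90-fold in the ones labelled Shn-RNAi (0.93, SE 0.21, adjusted p = 0.034).

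The paralog of nub, pdm2, encodes a closely related POU-domain protein and starts 29.0 kb beyond the end of nub on the same strand. It stood at 16.4 and 16.9 CPM in libraries labelled Shn-RNAi puc, at 27.5 and 25.8 CPM in the ones labelled Shn-RNAi, and at 5.80, 7.97 and 7.80 CPM in control. The 3 groups did not overlap, in the same order as for drm. pdm2 rose by 1.21 on the log2 scale in libraries labelled Shn-RNAi puc (SE 0.17, edgeR adjusted p = 0.0048) and by 1.89 in the ones labelled Shn-RNAi (SE 0.17, adjusted p = 0.001). The call was kept in 7 of 7 refits that each left out 1 library for libraries labelled Shn-RNAi, and in 6 of 7 for the ones labelled Shn-RNAi puc (adjusted p = 0.057 without Shn-RNAi puc library 2). How far reads of related stretches of nub and pdm2 were shared in the counting was not tested. The antisense gene Ref2, whose annotated span overlaps that of nub without sharing exonic bases, had 8 and 8 counts in libraries labelled Shn-RNAi puc, 11 and 6 in the ones labelled Shn-RNAi, and 3, 1 and 0 in control. Like nub, Ref2 was thus above control in all 4 libraries of the RNAi groups, but it was not called (edgeR adjusted p = 0.083 in libraries labelled Shn-RNAi puc and 0.1 in the ones labelled Shn-RNAi), and its part in the counts of nub was not tested. The other POU genes looked at, pdm3 and acj6, had too few counts to be tested.

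GATAe (chromosome 3R, 16009105 to 16019133, plus strand) was not called in either comparison with control. It stood at 121 and 118 CPM in libraries labelled Shn-RNAi puc, at 116 and 95.4 CPM in the ones labelled Shn-RNAi, and at 106, 107 and 108 CPM in control. Libraries labelled Shn-RNAi puc were above all control libraries, as 28.5% of all tested genes were, and the ones labelled Shn-RNAi lay on either side of them. The log2 difference from control was 0.17 (95% interval -0.17 to 0.51, edgeR adjusted p = 0.51) in libraries labelled Shn-RNAi puc and -0.01 (-0.35 to 0.33, adjusted p = 0.97) in the ones labelled Shn-RNAi. Both intervals exclude a change as large as that of drm in libraries labelled Shn-RNAi. The ratio of nub to GATAe counts was 1.05 and 1.17 in libraries labelled Shn-RNAi puc, 1.38 and 1.39 in the ones labelled Shn-RNAi, and 0.723, 0.892 and 0.549 in control. The ratios of the 3 groups did not overlap. Of the other GATA-family genes and their partner ush, 0 of 3 tested (srp, GATAd and ush) were called by edgeR in any comparison.

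**Figure D2:**
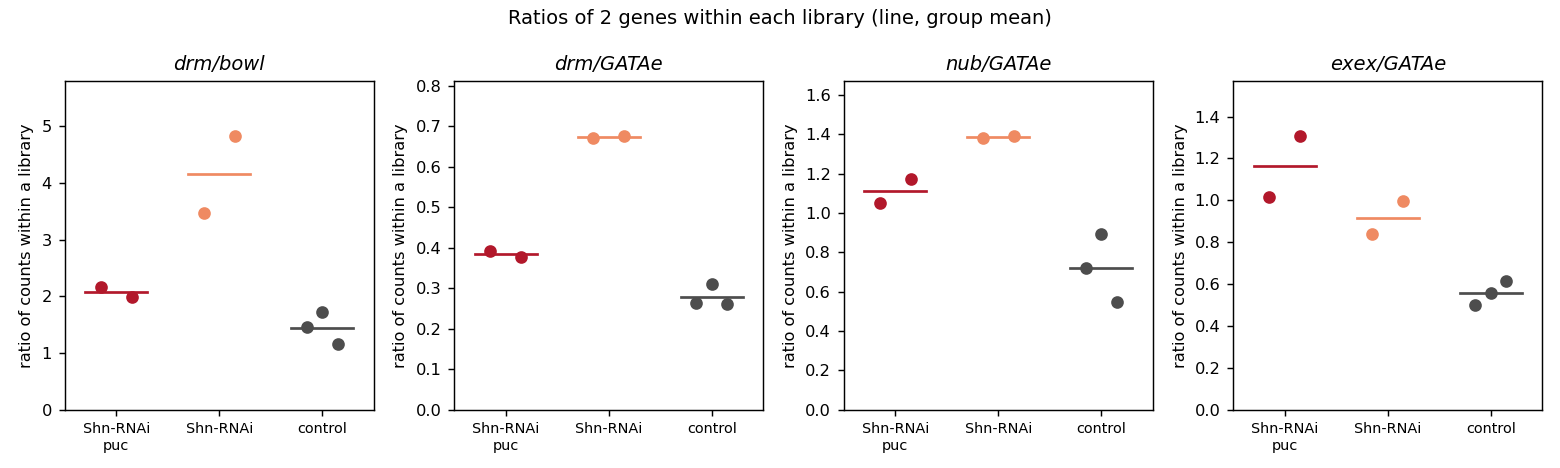
Ratio of the counts of 2 genes within each library (linear axes from 0), with the group mean as a line. In all 4 panels every library of the RNAi groups lies above the 3 control libraries. The ratio of exex to GATAe was 1.02 and 1.31 in libraries labelled Shn-RNAi puc, 0.839 and 0.995 in the ones labelled Shn-RNAi, and 0.4997 to 0.615 in control.

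exex encodes a homeodomain protein, the fly relative of vertebrate Hb9, known from motor neurons and also expressed in the midgut. It lies on chromosome 3L from 7948186 to 7951563 on the plus strand. Its level was 123 and 154 CPM in libraries labelled Shn-RNAi puc, 97.5 and 94.95 CPM in the ones labelled Shn-RNAi, and 52.9, 59.5 and 66.1 CPM in control. The groups did not overlap, and here libraries labelled Shn-RNAi puc were the highest, whereas for drm the ones labelled Shn-RNAi were. The rise was 2.33-fold in libraries labelled Shn-RNAi puc (log2 change 1.22, SE 0.16, edgeR adjusted p = 0.004) and 1.62-fold in the ones labelled Shn-RNAi (0.69, SE 0.16, adjusted p = 0.038).

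cad encodes Caudal, a homeodomain protein of the posterior gut that also restrains antimicrobial peptide genes there (chromosome 2L, 20770731 to 20783135, plus strand). It stood at 35.3 and 23.1 CPM in libraries labelled Shn-RNAi puc, at 39.4 and 25.8 CPM in the ones labelled Shn-RNAi, and at 37.0, 41.6 and 37.0 CPM in control. Each RNAi group held 1 library near the control values and 1 well below them, and both libraries labelled Shn-RNAi puc were below all control libraries, as 26.4% of all tested genes were. The log2 difference from control was -0.40 (95% interval -0.95 to 0.15, edgeR adjusted p = 0.3) in libraries labelled Shn-RNAi puc and -0.24 (-0.78 to 0.30, adjusted p = 0.57) in the ones labelled Shn-RNAi.

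lab encodes Labial, the Hox protein that specifies the acid-secreting copper cells of the middle midgut (chromosome 3R, 6661427 to 6678590, minus strand). Its level was 15.2 and 13.1 CPM in libraries labelled Shn-RNAi puc, 12.8 and 6.60 CPM in the ones labelled Shn-RNAi, and 9.53, 9.85 and 13.6 CPM in control. Libraries labelled Shn-RNAi were the most uneven, with 229 and 90 counts and counting intervals (95%) of 11.2 to 14.6 and 5.31 to 8.12 CPM that did not meet. Set against control the log2 difference was 0.37 (95% interval -0.29 to 1.03, edgeR adjusted p = 0.44) in libraries labelled Shn-RNAi puc and -0.17 (-0.84 to 0.51, adjusted p = 0.77) in the ones labelled Shn-RNAi. Without Shn-RNAi library 1 the second value was -0.73 (adjusted p = 0.15). For lab, cad, bowl and GATAe alike, Shn-RNAi library 2 was below Shn-RNAi library 1 and below every control library.

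The posterior Hox genes of the bithorax complex were rare transcripts. abd-A (chromosome 3R, 16807214 to 16830049, minus strand) had 3.51 and 2.47 CPM in libraries labelled Shn-RNAi puc, 3.25 and 3.23 CPM in the ones labelled Shn-RNAi, and 2.72, 4.32 and 3.50 CPM in control. The groups overlapped, and the log2 difference from control was -0.24 (95% interval -0.90 to 0.43, edgeR adjusted p = 0.64) in libraries labelled Shn-RNAi puc and -0.12 (-0.78 to 0.53, adjusted p = 0.83) in the ones labelled Shn-RNAi.

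Abd-B, which specifies the most posterior segments, lies 97.2 kb from abd-A (chromosome 3R, 16927212 to 16972236, minus strand). It had 32 and 25 counts in libraries labelled Shn-RNAi puc (2.08 and 1.77 CPM), 43 and 30 in the ones labelled Shn-RNAi (2.41 and 2.20 CPM), and 16, 25 and 17 in control (1.15, 1.38 and 1.35 CPM). All 4 libraries of the RNAi groups were above the 3 control libraries, as were 17% of all tested genes. The difference did not pass the test: it was 0.57 on the log2 scale (95% interval -0.10 to 1.24, edgeR adjusted p = 0.23) in libraries labelled Shn-RNAi puc and 0.83 (0.17 to 1.49, adjusted p = 0.11) in the ones labelled Shn-RNAi. The ratio of Abd-B to abd-A counts was 0.593 and 0.714 in libraries labelled Shn-RNAi puc, 0.741 and 0.682 in the ones labelled Shn-RNAi, and 0.421, 0.321 and 0.386 in control. Among the other Hox genes and their cofactors, 0 of 6 tested (Antp, Ubx, exd, hth, tsh and tio) were called by edgeR in any comparison.

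vvl encodes a POU-domain protein that acts in the tracheal system, the nervous system and the wing veins, and it was the least abundant of the 10 (chromosome 3L, 6790158 to 6794941, plus strand). It had 13 and 15 counts in libraries labelled Shn-RNAi puc, 16 and 8 in the ones labelled Shn-RNAi, and 7, 21 and 7 in control. The groups overlapped, and differences were not detectable at this depth: the 95% interval of the log2 difference ran from -0.83 to 1.48 in libraries labelled Shn-RNAi puc and from -1.18 to 1.15 in the ones labelled Shn-RNAi. Control library 2, the highest for vvl, also had the highest sum over the 7 tracheal markers counted, at 53.6 CPM, against 18.0 to 27.1 CPM in the other libraries. Among control libraries verm ranged from 1.58 to 22.0 CPM and serp from 2.44 to 11.4 CPM. Ranges were narrower for Gasp (7.16 to 11.6), btl (3.19 to 4.04), kni (1.49 to 2.47), tyn (1.22 to 1.94) and trh (0.860 to 1.27). The part of that sum in the vvl value of control library 2 was not tested. Without that library the log2 difference was 0.81 in libraries labelled Shn-RNAi puc and 0.49 in the ones labelled Shn-RNAi, with edgeR adjusted p of 0.34 and 0.6.

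**Figure D3:**
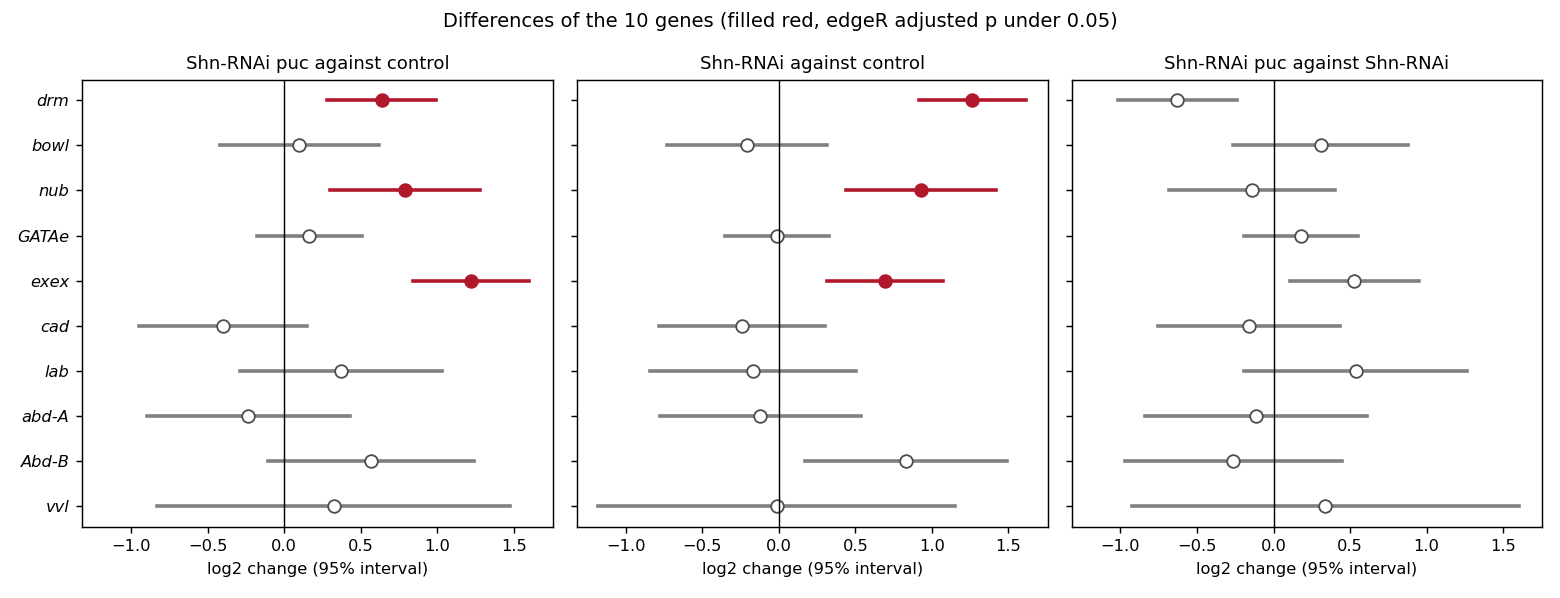
Log2 change of the 10 genes with its 95% interval, in the 3 comparisons; filled red points mark an edgeR adjusted p under 0.05. drm, nub and exex are filled in both comparisons with control, and no gene is filled between the RNAi groups.

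Libraries labelled Shn-RNAi puc were also compared with the ones labelled Shn-RNAi, which lack the puckered allele. Whether strain background differed as well is not given in the labels, so allele and background cannot be told apart. None of the 10 genes was called in it by edgeR, DESeq2 or limma-voom. Of all genes, edgeR called 0.143% (0.0881% higher, 0.0551% lower). At an unadjusted edgeR p under 0.05 were 2 of the 10, beside 579 of all 9076 genes tested. Libraries labelled Shn-RNAi puc lay wholly above the ones labelled Shn-RNAi for 3 of the 10 genes (16.1% of all tested genes) and wholly below for 2 of the 10 (11.9%). drm was lower with the allele by values, at 46.2 ± 2.14 CPM in libraries labelled Shn-RNAi puc and 71.3 ± 9.54 CPM in the ones labelled Shn-RNAi (mean ± SD, n = 2 each). Its log2 difference was -0.63 (95% interval -1.02 to -0.24, edgeR adjusted p = 0.39). exex lay the other way, at 139 ± 21.8 CPM in libraries labelled Shn-RNAi puc and 96.2 ± 1.81 CPM in the ones labelled Shn-RNAi (log2 difference 0.53, 0.11 to 0.95, adjusted p = 0.63). The intervals of both leave out 0, but neither gene passed after adjustment over all genes. nub differed by less, with a log2 difference of -0.14 (-0.68 to 0.40, adjusted p = 0.97). The ratio of exex to drm counts was 2.59 and 3.45 in libraries labelled Shn-RNAi puc, 1.25 and 1.47 in the ones labelled Shn-RNAi, and 1.80 to 2.36 in control. The control values therefore lay between those of the RNAi groups.

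Levels of different genes were set side by side only per kilobase (kb) of their median annotated transcript. In control midguts GATAe was highest, at 35.8 ± 0.264 CPM per kb, followed by exex (25.03 ± 2.77), nub (23.5 ± 5.53), cad (15.3 ± 1.04) and drm (12.7 ± 1.25; mean ± SD, n = 3). bowl (5.96 ± 0.834) and lab (5.04 ± 1.04) came next, and abd-A (0.779 ± 0.177), Abd-B (0.372 ± 0.0372) and vvl (0.169 ± 0.0836) were far lower. exex and nub overlapped between libraries, as did bowl and lab, while the other neighbours in this order did not. The order at the top was another in the RNAi groups. In libraries labelled Shn-RNAi puc exex led with 58.4 ± 9.16 CPM per kb, above nub (40.7 ± 2.37) and GATAe (40.1 ± 0.845), which overlapped. In the ones labelled Shn-RNAi nub (44.9 ± 5.94) and exex (40.5 ± 0.759) overlapped with each other, and both lay above GATAe (35.5 ± 4.94). drm, below cad in every control library, was above it in every library of the RNAi groups, with 19.8 ± 0.920 against 11.6 ± 3.42 CPM per kb in libraries labelled Shn-RNAi puc and 30.6 ± 4.09 against 12.9 ± 3.83 in the ones labelled Shn-RNAi.

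**Figure D4:**
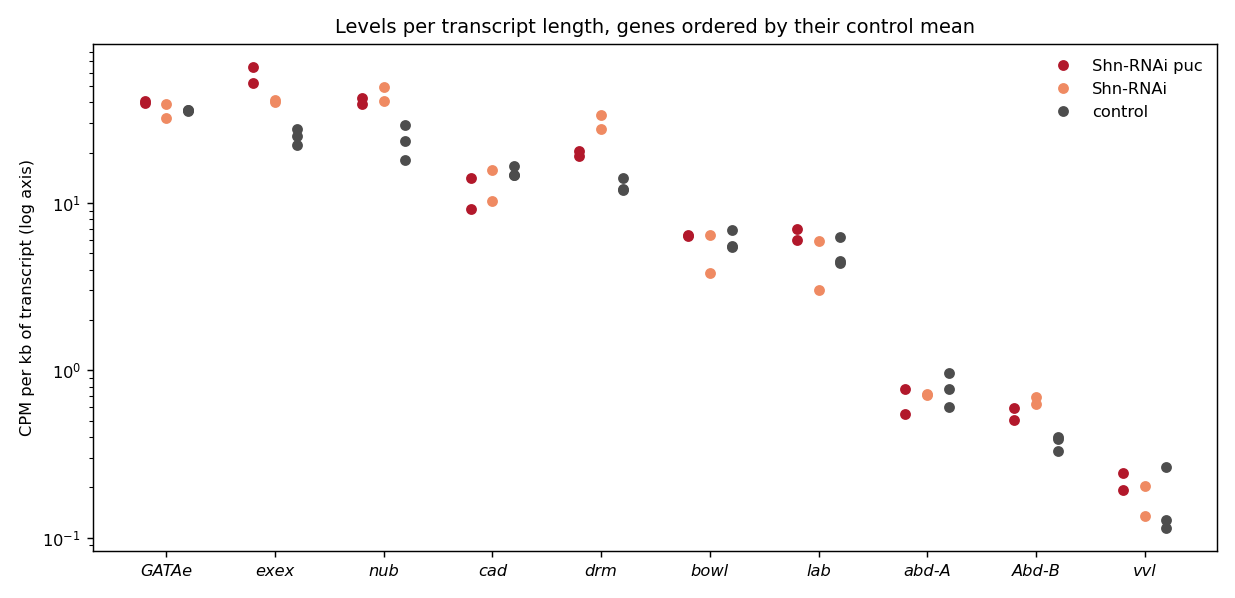
CPM per kb of median transcript length (log axis) in each library, genes ordered by their control mean. GATAe leads in control at 35.8 CPM per kb, exex in libraries labelled Shn-RNAi puc at 58.4, and abd-A, Abd-B and vvl lie below 1 in every library.

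The calls did not all rest on every library equally. For libraries labelled Shn-RNAi, drm was called in 7 of 7 refits that each left out 1 library, with a log2 change of 1.12 to 1.40 and a highest edgeR adjusted p of 0.025. nub was called in 1 of 7, the one without control library 2. Its adjusted p was 0.12 and 0.092 without control libraries 1 and 3, 0.11 and 0.06 without Shn-RNAi libraries 1 and 2, and 0.081 without either Shn-RNAi puc library. exex was called in 0 of 7. Its adjusted p was 0.18, 0.097 and 0.078 without control libraries 1, 2 and 3, 0.083 and 0.073 without Shn-RNAi libraries 1 and 2, and 0.06 and 0.058 without Shn-RNAi puc libraries 1 and 2. Its log2 change stayed between 0.62 and 0.79 in these refits.

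For libraries labelled Shn-RNAi puc the order was turned round, and exex was called in 6 of 7 refits (log2 change 1.05 to 1.37). The exception was the one without Shn-RNAi puc library 2, with an edgeR adjusted p of 0.054. drm was called in 2 of 7, with an adjusted p of 0.14, 0.051 and 0.11 without control libraries 1, 2 and 3 and of 0.14 and 0.15 without Shn-RNAi puc libraries 1 and 2. nub was called in 3 of 7, with an adjusted p of 0.14 and 0.12 without control libraries 1 and 3 and of 0.15 and 0.25 without Shn-RNAi puc libraries 1 and 2. The log2 changes stayed between 0.59 and 0.70 for drm and between 0.63 and 0.95 for nub. A refit that left 1 library in a group assumes that this library varies like the other groups.

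**Figure D5:**
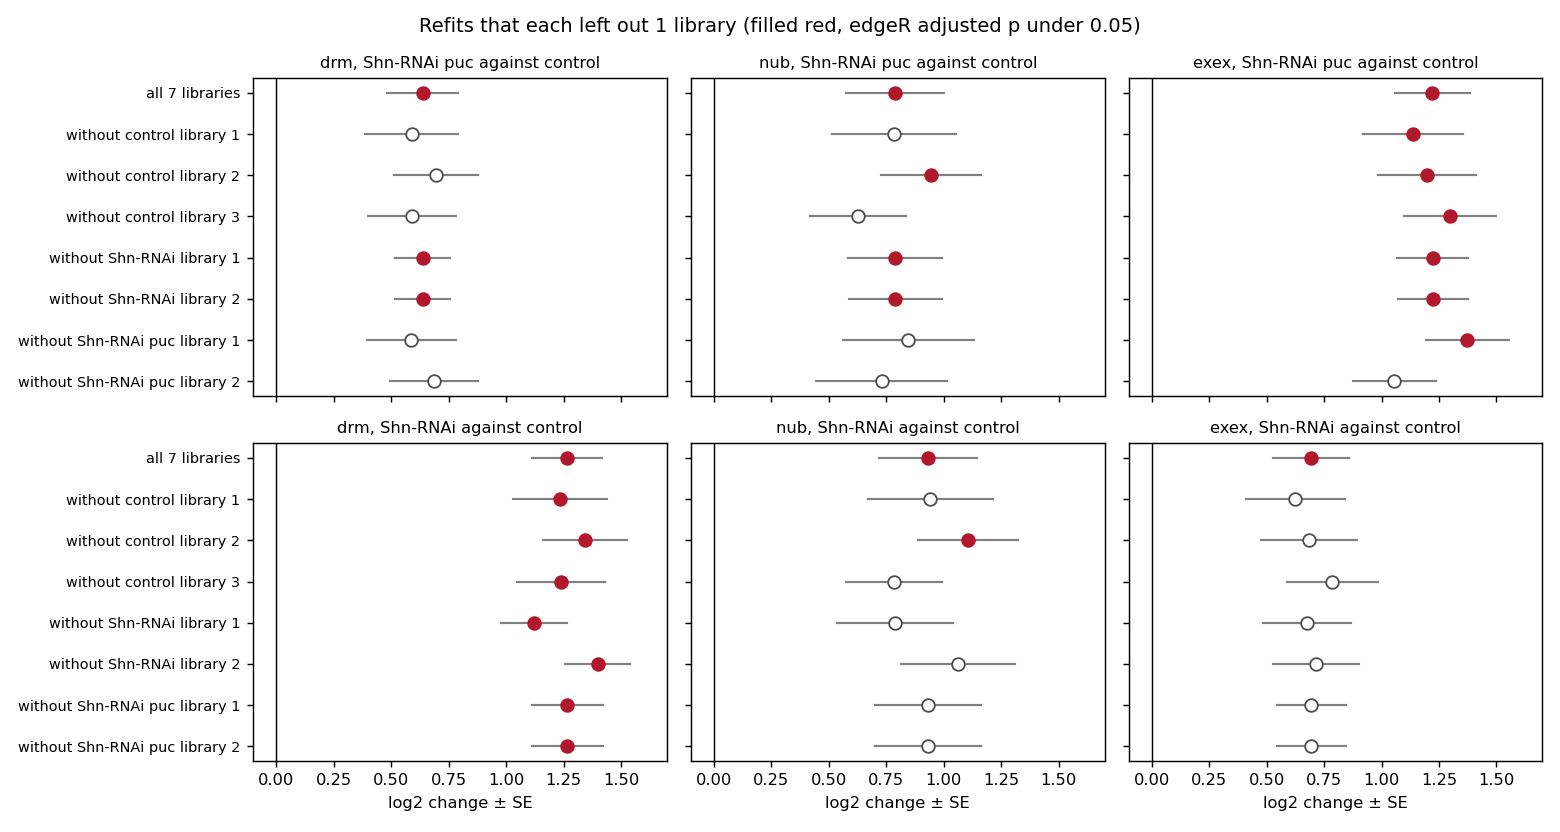
Log2 change against control (± SE) of drm, nub and exex with all 7 libraries and without each in turn; filled red points mark an edgeR adjusted p under 0.05. All changes lie between 0.59 and 1.40 and every point is above 0, while the number of filled points differs between genes and groups.

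Libraries also differed by transcript length. Between the shortest and the longest of 4 length classes the median log2 deviation moved by 0.08 and 0.33 in libraries labelled Shn-RNAi puc, 0.62 and -0.28 in the ones labelled Shn-RNAi, and -0.32, 0.0036 and -0.41 in control. nub belongs to the longest class, and drm and exex to the class below it. With that trend taken out the 3 genes were still called in both comparisons. The log2 change was then 0.53 for drm, 0.60 for nub and 1.10 for exex in libraries labelled Shn-RNAi puc, and 1.22, 0.77 and 0.65 in the ones labelled Shn-RNAi.

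Of 7 tested genes linked to gut regions (Ptx1, dve, ct, fkh, mirr, tup and retn), 1 rose in libraries labelled Shn-RNAi puc and 0 were called by edgeR in the ones labelled Shn-RNAi. The one was fkh, a forkhead protein needed for gut and salivary gland development, at 42.2 and 49.5 CPM in libraries labelled Shn-RNAi puc, 45.4 and 36.2 CPM in the ones labelled Shn-RNAi, and 22.6, 28.8 and 18.3 CPM in control. Its log2 change was 0.98 (SE 0.21, edgeR adjusted p = 0.021; called in 3 of 7 refits, highest 0.18 without Shn-RNAi puc library 2) in libraries labelled Shn-RNAi puc and 0.81 (SE 0.21, adjusted p = 0.05, not called) in the ones labelled Shn-RNAi. The second was called in 4 of 16 alternative fits, with adjusted p of 0.013 with DESeq2, 0.03 with the length trend taken out, 0.047 with RLE scaling and 0.04 without control library 2, and a highest of 0.17. Ptx1 and dve, which like lab mark the middle midgut, differed from control by 0.15 and 0.02 in libraries labelled Shn-RNAi puc and by -0.42 and -0.12 in the ones labelled Shn-RNAi. mirr (0.89 and 0.69 in the same groups) and retn (0.89 and 0.84) were not called. For both, all 4 libraries of the RNAi groups were above all control libraries, as were 17% of all tested genes. ct differed by 0.33 and 0.82, and tup by 0.14 and -0.08. The median over the 7 genes was 0.33 in libraries labelled Shn-RNAi puc and 0.69 in the ones labelled Shn-RNAi. Of 6 further factors known from enterocytes or their metabolism (Sox100B, Hnf4, Mondo, bigmax, sug and zfh2), only Mondo, a sugar-sensing factor, was called, lower in libraries labelled Shn-RNAi puc (73.3 and 73.3 CPM, against 107, 104 and 129 CPM in control; log2 change -0.63, SE 0.17, edgeR adjusted p = 0.041). Mondo was called in 2 of 7 refits, with a highest adjusted p of 0.23 without Shn-RNAi puc library 2.

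Of 12 enterocyte effectors tested, 4 were called higher and 2 lower in libraries labelled Shn-RNAi puc, where 8.76% of all genes were called higher and 6.25% lower. In the ones labelled Shn-RNAi 2 were called higher and 0 lower by edgeR, beside 6.06% and 3.56% of all genes. Their median log2 change was 0.51 in libraries labelled Shn-RNAi puc and 0.35 in the ones labelled Shn-RNAi. In libraries labelled Shn-RNAi puc, the septate junction gene mesh rose by 1.00 on the log2 scale (edgeR adjusted p = 0.013) and the amylase gene Amy-p by 1.67 (adjusted p = 0.028). In the ones labelled Shn-RNAi, mesh rose by 0.90 (adjusted p = 0.024) and Amy-p by 2.33 (adjusted p = 0.012). The Shn-RNAi libraries were uneven for Amy-p, with 4895 CPM in library 1 against 14033 CPM in library 2, and its log2 change was 1.39 without library 2 and 2.90 without library 1. In libraries labelled Shn-RNAi puc the maltase gene Mal-A1 (1.55, adjusted p = 0.014) and the innexin gene Inx7 (0.75, adjusted p = 0.019) rose too, and the trypsin gene betaTry fell (-1.43, adjusted p = 0.022). These calls were kept in 2 to 4 of 7 refits, other than that of Amy-p in libraries labelled Shn-RNAi, kept in 7. Those in libraries labelled Shn-RNAi puc were all lost without either library of that group, with adjusted p of 0.057 to 0.18, and without control library 3 (0.051 to 0.091). That of mesh in libraries labelled Shn-RNAi was lost without control libraries 1 and 3 and Shn-RNAi library 2 (0.12, 0.096 and 0.06). Npc2f, besides betaTry the gene called lower in libraries labelled Shn-RNAi puc, fell by -1.07 there (edgeR adjusted p = 0.041). In the ones labelled Shn-RNAi its log2 difference was -0.98 (adjusted p = 0.065, not called). Npc2f was not followed in the refits. The pump subunit gene Vha100-4, which like lab belongs to copper cells, differed from control by 0.01 in libraries labelled Shn-RNAi puc and by -0.20 in the ones labelled Shn-RNAi, and was not called.

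Markers of other cell types moved in part with the 3 genes, and their part in the results was not tested. The counts of called markers below stand beside all-gene shares of 8.76% higher and 6.25% lower in libraries labelled Shn-RNAi puc, and 6.06% higher and 3.56% lower in the ones labelled Shn-RNAi. The hindgut marker byn, at 18.0 and 12.6 CPM in libraries labelled Shn-RNAi puc, 10.6 and 12.2 CPM in the ones labelled Shn-RNAi, and 4.87, 6.09 and 8.44 CPM in control, rose in libraries labelled Shn-RNAi puc (log2 change 1.25, edgeR adjusted p = 0.018; called in 3 of 7 refits, highest 0.14 without Shn-RNAi puc library 1) and not past the threshold in the ones labelled Shn-RNAi (0.82, adjusted p = 0.086). The 3 hindgut markers counted, none at 0 in any library, summed to 24.6 to 28.5 CPM in libraries labelled Shn-RNAi puc, 19.7 to 21.7 CPM in the ones labelled Shn-RNAi and 17.6 to 20.9 CPM in control. These markers did not move together. otp lay higher by values in both RNAi groups and was not called. hh was not called either, at 7.73 to 9.96 CPM in libraries labelled Shn-RNAi puc and 6.16 to 9.19 CPM in the ones labelled Shn-RNAi. All of these hh values lay below the 11.5 to 13.7 CPM of control, as for 15.4% of all tested genes. The log2 differences of hh from control were -0.47 and -0.67 in the same groups. Progenitor markers summed to 439 to 448 CPM in libraries labelled Shn-RNAi puc, 433 to 540 CPM in the ones labelled Shn-RNAi and 251 to 331 CPM in control, with 1 of 9 and 3 of 9 called higher. The called ones were Stat92E in both, and hdc and peb in libraries labelled Shn-RNAi. Most of the sum was Stat92E, which averaged 242 CPM in libraries labelled Shn-RNAi puc, 256 CPM in the ones labelled Shn-RNAi and 143 CPM in control, and peb (129, 153 and 88.5 CPM in the same groups). The driver's own gene esg and the Notch target E(spl)mbeta-HLH were not called, with log2 differences of 0.11 and -0.54 in libraries labelled Shn-RNAi puc and of 0.07 and -0.23 in the ones labelled Shn-RNAi. Of the other markers called in neither, Sox21a (1.10 and 1.07 in the same groups) and Dl (0.37 and 0.59) lay higher by values. klu (-0.06 and -0.19) and E(spl)m3-HLH (-0.44 and -0.10) lay lower. The median log2 change over the 9 markers was 0.37 in libraries labelled Shn-RNAi puc and 0.59 in the ones labelled Shn-RNAi. Enteroendocrine markers summed to 501 to 589 CPM in libraries labelled Shn-RNAi puc, 464 to 610 CPM in the ones labelled Shn-RNAi and 417 to 440 CPM in control, with 1 of 11 higher and 1 lower in libraries labelled Shn-RNAi puc and 2 of 11 higher in the ones labelled Shn-RNAi. Neuron markers, relevant to exex, had 0 of 6 called by edgeR in either comparison with control. They summed to 20.8 to 28.3 CPM in libraries labelled Shn-RNAi puc, 22.7 to 42.2 CPM in the ones labelled Shn-RNAi and 11.2 to 27.8 CPM in control.

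Visceral muscle markers stood lower, at 1987 to 2343 CPM in libraries labelled Shn-RNAi puc, 2518 to 2656 CPM in the ones labelled Shn-RNAi and 3812 to 4041 CPM in control, with 8 of 13 and 4 of 13 called lower. Tracheal markers had 1 of 7 called higher in libraries labelled Shn-RNAi puc and 0 by edgeR in the ones labelled Shn-RNAi. Malpighian tubule markers had 1 of 6 higher and 1 lower in the first comparison and 1 of 6 lower in the second. Hemocyte markers had 1 of 3 higher in the first comparison, fat body markers 1 of 3 higher in the second, and gonad markers 0 of 3 by edgeR in either.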

How the data were processed

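RNA was sequenced from 7 midgut libraries. The authors deposited whole-number counts per gene, with no scaling to a common total. Per the submitters' processing notes, Salmon 1.0.0, DESeq2 and the build BDGP6 were used; the role of each tool, any rounding and the use of strand are not given in the sources used here. Each column name shows a genotype and a counter but no sample, so a column is known only by its group (a library here). Whether separate flies or pools lie behind the libraries is not given in the labels, so p-values measure only the spread between these libraries.

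Tests used edgeR 4.0.16 in R 4.3.3. filterByExpr by group left 9076 of 10902 genes, which held at least 99.77% of each library's counts. One quasi-likelihood model with TMM scaling held all 7 libraries and 3 groups (4 residual degrees of freedom, biological coefficient of variation 21.6%) and gave 3 contrasts, with two-sided p-values adjusted over all genes. SE is the log2 change divided by the square root of F, and intervals (95%) use it; counting intervals cover counting error only. The script was tested on simulated data.

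Positions and transcript lengths are from Ensembl 115 on BDGP6.54, which holds 10869 of the 10902 symbols, 825 of them under another current name. The members, gene lists and tests were chosen with earlier results of these data known. All 10 members are named; from the transcription factor and effector lists, genes called in a contrast (at most 4 per list and contrast, by smallest p). Marker lists are given by counts and sums. Other genes with values were named after their values were seen. They were sob, odd, Ref2, Ptx1, dve, mirr, retn, ct, tup, Vha100-4, alphaTry, Npc2f, byn, otp, hh and the tracheal and progenitor markers. Alternatives were DESeq2 1.42.0, limma-voom (limma 3.58.1), other scalings, filters and sample sets, the length trend taken out (lowess per library) and leaving out each library. The w1118 cross of the controls means that strain background and RNAi cannot be told apart.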

Additional observations from a re-analysis of the deposited data

How the results depend on the processing

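No paired analysis was possible because the labels number the samples in one run over all groups and the columns carry no sample number. No log2 change that was computed, of the 10 genes or of the others named, reversed a call. With all 7 libraries 873 genes were called in libraries labelled Shn-RNAi against control, 1362 in the ones labelled Shn-RNAi puc against control and 13 between the RNAi groups. Leaving out 1 library at a time gave 285 to 835, 172 to 1872 and 4 to 13 genes. Of the 10 genes, 1 to 2 were then called higher in libraries labelled Shn-RNAi (3 with all libraries) and 0 to 3 in the ones labelled Shn-RNAi puc (3 with all libraries). Fitting only the groups compared called 2206 genes in libraries labelled Shn-RNAi puc. Between the RNAi groups, 33 genes were called with the length trend taken out and 84 with DESeq2. The cause of these differences was not tested. Outside the refits without a library, 3 calls of the 10 genes were lost: exex (adjusted p = 0.051) in libraries labelled Shn-RNAi and nub (0.059) in the ones labelled Shn-RNAi puc with no filter on low counts, and nub (0.058) in libraries labelled Shn-RNAi with only the 2 groups fitted. Among the other genes named and followed in these fits, Mondo lost its call with no filter (0.057). In libraries labelled Shn-RNAi, mesh lost its call with the length trend taken out (0.065). In that group fkh gained one in 4 of 16 alternatives (lowest 0.013 with DESeq2). With the length trend taken out odd was called lower in both comparisons (0.02 in libraries labelled Shn-RNAi puc and 0.042 in the ones labelled Shn-RNAi). TMM, RLE and upper-quartile scaling made the same calls for the 10 genes. Counts of 7 to 43 per library limit vvl and Abd-B.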
